A study of Mus musculus with 32 samples.

Results

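The interferon response genes examined here were 42 mouse genes, taken by symbol from a list of genes that interferons induce and of the factors that carry that response. All 42 had a row in 3 of the 4 count tables and 41 in the fourth, in which Herc6 had none. The tables held 23284 (leukaemia), 23951 (adult marrow), 22777 (fetal liver, total knockout) and 23955 (fetal liver, f-PRDM16 knockout) named genes. The members were followed across 32 RNA sequencing libraries in 10 groups and through the 7 knockout or add-back comparisons of the study.

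Prdm16 encodes a zinc-finger transcriptional regulator made in a full-length form (f-PRDM16), which carries a PR domain, and a short form (s-PRDM16), which lacks it. The leukaemia groups were cells transformed by the fusion oncogene MLL-AF9 and sorted from moribund mice: PRDM16 knockout cells overexpressing s-PRDM16 (KO+s), knockout cells overexpressing f-PRDM16 (KO+f), knockout cells carrying an empty vector (KO+EV) and wild-type cells carrying it (WT+EV), with 3 libraries each. KO+s, KO+f and KO+EV thus share the deletion, and all 12 libraries carry MLL-AF9. The other groups were haematopoietic stem cells (HSCs) sorted as Lin-cKit+Sca1+CD48-: adult bone marrow labelled PRDM16 KO or wild type (4 libraries each), fetal liver labelled PRDM16 KO or wild type (3 each, the total knockout), and fetal liver of a line labelled 47bp in which knockout cells express s-PRDM16 only, with wild types of its own (3 each, the f-PRDM16 knockout). The design text calls the replicates independent. The labels do not tie libraries to animals or transductions and give no age, sex, Cre driver or number of clones, so a p-value here reflects only how far these samples spread, which may be partly technical. All values come from bulk RNA, in which fewer cells of a type and less RNA per cell cannot be told apart.

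Type I interferons bind a receptor whose kinases include JAK1 and TYK2. Signalling from it assembles ISGF3, a complex that contains STAT2 and IRF9 and binds the interferon-stimulated response element in promoters, while interferon gamma acts mainly through gamma-activated sequences. The induced genes include RNA sensors, antiviral effectors, chemokines and antigen-processing proteins, and in blood formation interferons are known for driving dormant stem cells into cycle.

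The response element was looked for in the promoters of the members, because it is the sequence through which ISGF3 and IRF proteins are known to act. RefSeq promoters (GRCm38.p6, 250 bases before to 50 after each start) matched 31 of the 42 members. Its core, GAAA repeated after a gap of any 2 bases and searched on both strands (TTTC repeats on the other), occurred in 17 of the 31 (54.8%), against 3.99% of 27025 genes with a promoter in the table. The gamma-activated sequence TTCNNNGAA occurred in 7 of 31 (22.6%), against 9.55% of genes. The response element had no match for Irf7, Irf1, Irf9, Tap1 or Psmb9, which says only that these letters are not in that window. The windows below, 5′ to 3′ on the strand of the gene and with the element in capitals, belong to members whose values carry the results. They start with the sensor Ddx58 (chr4:40239804-40239833, minus strand, the element beginning 2 bases after the start), followed by Stat2 (chr10:128270266-128270295, plus strand), the GTPase genes Gbp3 (chr3:142559989-142560024, plus strand) and Irgm1 (chr11:48871425-48871460, minus strand), then Rsad2 (chr12:26456553-26456582, minus strand), Cxcl10 (chr5:92349083-92349112, minus strand) and Oas1a (chr5:120907520-120907555, minus strand).
Ddx58: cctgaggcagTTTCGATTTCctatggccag
Stat2: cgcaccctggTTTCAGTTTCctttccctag
Gbp3: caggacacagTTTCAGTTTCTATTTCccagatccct
Irgm1: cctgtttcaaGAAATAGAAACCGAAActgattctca
Rsad2: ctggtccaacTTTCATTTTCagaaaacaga
Cxcl10: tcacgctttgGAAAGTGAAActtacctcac
Oas1a: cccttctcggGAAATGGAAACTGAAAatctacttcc

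Depth was 16353584 to 23785307 counts per library in leukaemia, 22490805 to 29343602 in adult marrow, 26673671 to 33196697 in the total-knockout fetal table and 35503288 to 44952448 in the f-PRDM16-knockout fetal table. Levels are in CPM, counts scaled to the TMM-adjusted total of their library and not to its raw total. Sums and overlaps of CPM use the same scaling. Log2 changes with their standard errors (SE) come from edgeR's quasi-likelihood test. Its p-values were adjusted by Benjamini-Hochberg over all genes of a comparison, with a threshold of 0.05. All 7 MLL-AF9 programme markers were present in every leukaemia group (2013 to 3419 CPM summed), and all 10 HSC markers had counts in every HSC group (1036 to 4299 CPM summed). Some libraries stood apart. KO+EV replicate 3 held 53546 CPM of 8 granulocyte genes, against 10190 and 9815 in the other KO+EV libraries, and results that rest on it are given with and without it. In the total-knockout fetal table replicate 3 of both genotypes, and in the f-PRDM16-knockout table replicate 2 of both genotypes, stood apart in the members themselves.

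Prdm16, the targeted gene, checks the labels. It stood at 311.9, 240.9 and 191.7 CPM in KO+s, 330.9, 234.1 and 235.6 in KO+f, 0, 0.0915 and 0.0521 in KO+EV, and 0.991, 0.723 and 0.424 in WT+EV. Every KO+s and KO+f library thus held Prdm16 far above the wild-type level. KO+EV fell below WT+EV (log2 change -3.67 ± 0.69, adjusted p = 0.0297), a call lost without WT+EV replicate 1 (0.0705) or 2 (0.0531) or KO+EV replicate 1 (0.0544) or 2 (0.0818), and KO+s and KO+f did not differ detectably (-0.10 ± 0.22, adjusted p = 0.819). In fetal liver it was 24.7, 23.8 and 11.3 CPM in total-knockout cells, against 37.7, 39.8 and 24.9 in wild type (-0.77 ± 0.33, adjusted p = 1.00; -0.82 ± 0.13, adjusted p = 0.0299 when blocked by replicate number, a call lost without pair 1 (0.0538) or pair 2 (0.219)). It was 6.53, 9.74 and 7.83 CPM in f-PRDM16-knockout cells, against 13.4, 32.4 and 20.2 in wild type (-1.45 ± 0.36, adjusted p = 0.999). In adult marrow the libraries labelled KO had 41.3, 25.2, 40.4 and 13.4 CPM, against 51.9, 22.5, 37.8 and 10.8 in wild type (-0.03 ± 0.45, adjusted p = 0.988), so this RNA does not separate those labels. A count over the whole gene cannot test a deletion of part of it.

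Across the series the members were highest in adult marrow HSCs. Summed over the 42 members, libraries labelled KO held 3606 to 4051 CPM and wild-type libraries 3957 to 4354 CPM in adult marrow, KO+s 1258 to 1471, KO+f 1199 to 1284, KO+EV 952 to 1439 and WT+EV 858 to 1131. Of the 42 members, 32 had their highest group mean in adult marrow (21 in wild type, 11 in the libraries labelled KO), 4 in KO+s, 2 in KO+EV, 2 in fetal wild type of the total-knockout table and 2 in fetal wild type of the f-PRDM16-knockout table. For 14 members, among them Irf1, Irf9, Usp18, Gbp2, Igtp, Irgm1, Tap1, Psmb8 and Psmb9, all 8 adult libraries lay above all 12 fetal libraries. Among the 12162 genes tested in all 3 HSC tables, this held for 13 of 38 members and for 15.2% of genes, and the opposite order for 0 members and 4.07% of genes. Gbp2, a guanylate-binding protein gene, had a median of 96.3 CPM in adult libraries (79.7 to 112) and 6.06 CPM in fetal libraries (2.28 to 20.6). Tap1, a subunit of the peptide transporter that loads MHC class I, had 310 CPM in adult (264 to 353) and 39.5 CPM in fetal libraries (19.7 to 104). The tables were prepared and counted separately, so these levels across tables are a description.

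Per kilobase of exon, averaged over the 10 groups, Ifitm3, which blocks virus entry at membranes, led all members at 530 CPM per kilobase. The immunoproteasome subunit gene Psmb8 followed among the antigen-processing genes at 145. Leading their roles were Irgm1 at 27.1 among the interferon-gamma GTPases, Irf1 at 25.9 among the transcription factors, Oas1a at 21.3 in the oligoadenylate synthetase family, Ddx58 at 15.2 among the sensors, Parp9 at 14.7 in the ISG15 and ADP-ribosyl transferase group and Cxcl10 at 3.11 of the 2 chemokines, all in CPM per kilobase. Cxcl9 stayed lowest at 0.173 CPM per kilobase. The order within a role differed between groups. Gbp3 led the interferon-gamma GTPases in KO+f, KO+EV and WT+EV (20.6, 51.9 and 29.6 CPM per kilobase, with Irgm1 at 13.9, 15.2 and 9.203), and in the same 3 groups Ifih1 led the sensors and Bst2 was above Ifitm3. Irf9 led the factors in KO+s and KO+EV, Stat2 in WT+EV and Irf7 in fetal wild type of the total-knockout table, and Oasl2 led its family in adult marrow.

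**Figure D1:**
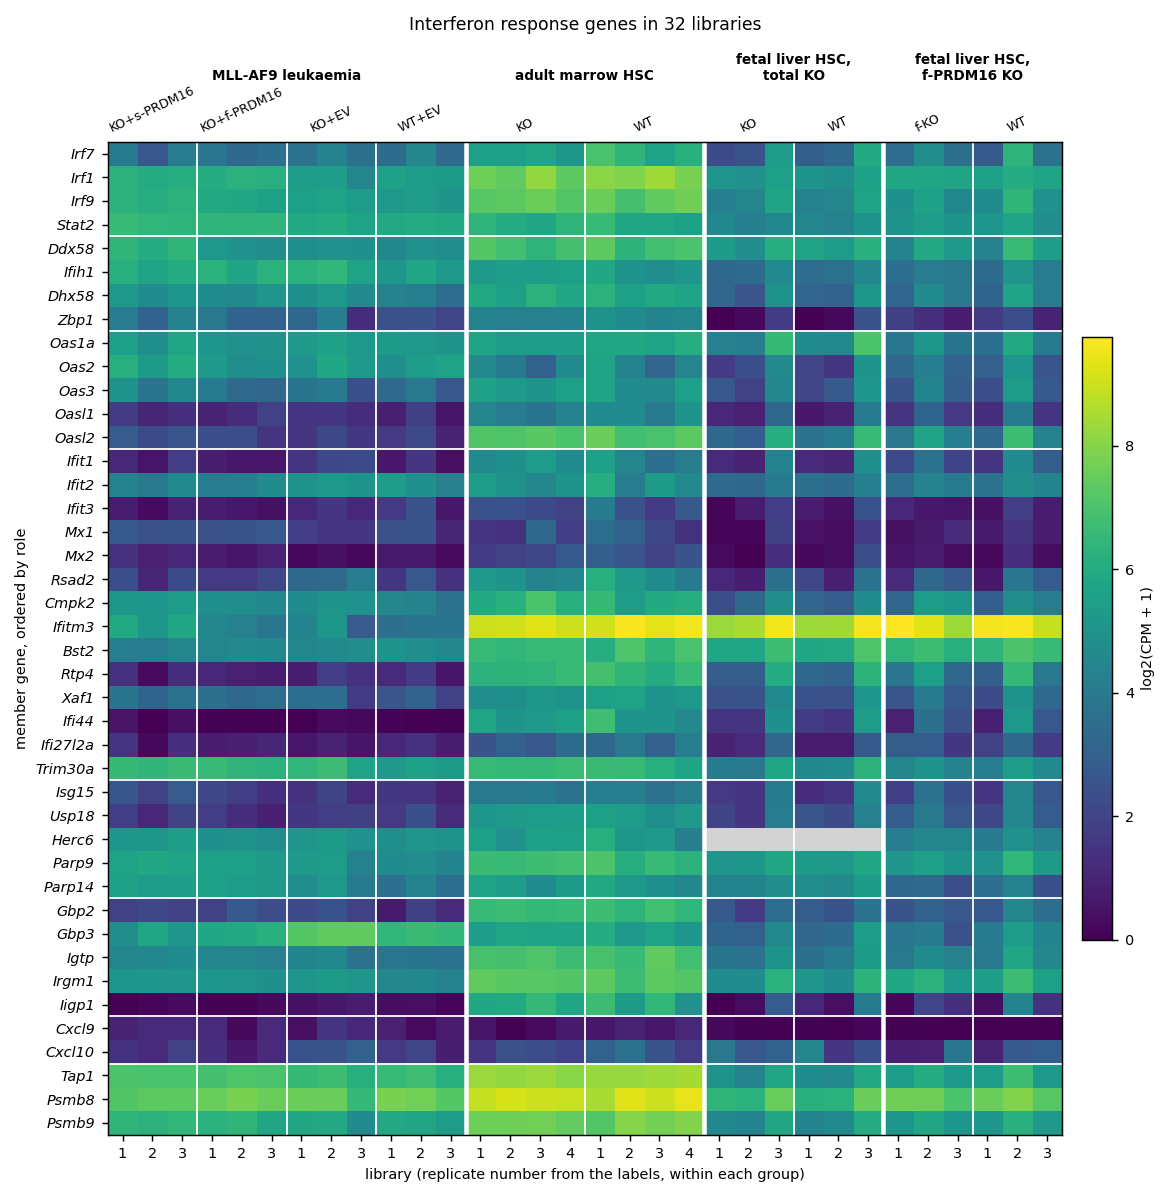
Heat map of log2(CPM + 1) for the 42 members (one line each, ordered by role) in the 32 libraries (columns, by group), grey where a table has no row for the gene. Brighter colours are higher values. Adult marrow libraries are brightest for most members (summed 3606 to 4354 CPM). Replicate 3 of the total-knockout fetal table and replicate 2 of the f-PRDM16-knockout fetal table stand out from their neighbours.

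The first leukaemia comparison asks what loss of Prdm16 did, KO+EV against WT+EV. Of the 40 members tested (Ifi44 and Iigp1 were too low), Irgm1 rose and no other passed, 1 of 40 against 2.10% of all 12958 genes (0.903% higher and 1.20% lower). Irgm1, an immunity-related GTPase that interferon gamma induces for defence inside cells, had 33.0, 39.0 and 33.2 CPM in KO+EV, against 21.98, 22.9 and 18.8 CPM in WT+EV. All KO+EV libraries were above all WT+EV libraries (0.73 ± 0.13, adjusted p = 0.0244). The call was lost without WT+EV replicate 1 (0.0503) or 3 (0.0762) or KO+EV replicate 2 (0.09999), and when no other group entered the fit (0.110).

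Other members were higher in KO+EV without passing. Gbp3, a guanylate-binding protein gene, had 145, 166 and 164 CPM in KO+EV, against 85.6, 99.6 and 86.5 CPM in WT+EV (0.81 ± 0.20, adjusted p = 0.0638). Trim30a, a member of the TRIM family of innate immune regulators, had 84.1, 102 and 48.8 CPM in KO+EV, against 37.3, 47.7 and 38.7 CPM in WT+EV (0.92 ± 0.22, adjusted p = 0.0562). It passed in 1 of 6 fits that left out 1 library (0.00651 without KO+EV replicate 3), with an adjusted p of up to 0.193 in the others. Both genes kept their groups apart. In all, 8 of 40 members did not overlap between groups, against 23.1% of genes, all 8 higher (11.9% of genes) and 0 lower (11.2% of genes). At an unadjusted p under 0.05 there were 12 members, against 18.1% of genes, and 29 of 40 fitted changes were above 0, against 50.3% of genes, with a median of 0.27 for the members and 0.00 for all genes. The median ran from 0.12 without KO+EV replicate 2 to 0.51 without WT+EV replicate 2. Leaving out KO+EV replicate 3 raised the count to 7 of 40 members, with 425 of 13165 genes called. DESeq2 called 7 of 40 members, with 907 of 12958 genes called.

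By role, the 4 RNA sensors, which detect viral nucleic acid, had a median of 0.85. All 4 interferon-gamma GTPases tested had an unadjusted p under 0.05 (median 0.77), and the 3 antigen-processing genes had a median of -0.14. Irf7, the factor that amplifies the type I response, changed by 0.01 ± 0.43. The ISGF3 subunits Stat2 and Irf9 changed by -0.09 ± 0.12 and 0.30 ± 0.14. The ubiquitin-like modifier Isg15 changed by 0.34 ± 0.46, and Usp18, the protease that removes it and dampens the receptor, by -0.09 ± 0.52, and none of the 5 passed. Outside the members, Gbp5 rose (6.26, 12.4 and 3.18 CPM in KO+EV, against 0.525, 1.65 and 0.942 CPM in WT+EV, 2.79 ± 0.54, adjusted p = 0.0306, passing in 3 of 6 fits that left out 1 library). Ifngr1, a chain of the interferon-gamma receptor, rose as well (783, 656 and 892 CPM in KO+EV, against 497, 482 and 443 in WT+EV, 0.71 ± 0.15, adjusted p = 0.0376), but passed in 0 of those 6 fits. They were the 1 gene called of 35 other interferon-stimulated genes and the 1 called of 10 receptor and JAK-STAT genes. Of 8 granulocyte markers tested 3 fell, S100a9 (-2.72 ± 0.45), Ngp (-2.50 ± 0.50) and S100a8 (-2.27 ± 0.52), and 0 rose. The list did not move one way, with 3 fitted changes above 0 and 5 below. Its sum was not lower in KO+EV (10190, 9815 and 53546 CPM) than in WT+EV (7833, 8360 and 15635 CPM). The part of these markers in the members' changes was not tested.

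The next comparison asks what f-PRDM16 does when overexpressed in knockout cells, KO+f against KO+EV. It shares the KO+EV libraries with the comparison above and with that of KO+s below. Here 5 of 40 members passed, against 11.3% of genes, 2 higher (6.88% of genes) and 3 lower (4.39% of genes). The transcription factors Irf1 and Stat2 rose, and Gbp3, Cxcl10 and Rsad2 fell.

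Gbp3 had 57.2, 59.6 and 72.3 CPM in KO+f, against 145, 166 and 164 CPM in KO+EV. Gbp3 is close in sequence to other Gbp genes, and how the counting split shared reads is not given. Every KO+f library was below every KO+EV library (-1.33 ± 0.20, adjusted p = 0.00395), and the call held in all 6 fits that left out 1 library. Irf1, a factor of the interferon-gamma response, had 65.2, 76.1 and 68.9 CPM in KO+f, against 43.4, 42.2 and 20.9 CPM in KO+EV (0.98 ± 0.23, adjusted p = 0.0201). Stat2 had 80.2, 80.7 and 83.8 CPM in KO+f, against 58.7, 65.0 and 49.7 CPM in KO+EV (0.50 ± 0.12, adjusted p = 0.0222). The groups do not overlap for either factor, although KO+EV replicate 3 is the lowest library for both. Irf1 lost its call without KO+f replicate 2 (0.0688), and Stat2 lost it without KO+EV replicate 3 (0.0629) or KO+f replicate 1 (0.0557) or 2 (0.0628). Both factors lost it when no other group entered the fit, where 0 members and 287 of 12536 genes were called higher.

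Cxcl10, a chemokine that draws T cells, had 1.56, 0.575 and 1.29 CPM in KO+f, against 4.53, 4.71 and 6.93 CPM in KO+EV (-2.23 ± 0.53, adjusted p = 0.0225). Rsad2, which makes the antiviral nucleotide enzyme viperin, had 2.09, 2.06 and 3.33 CPM in KO+f, against 8.80, 9.29 and 16.1 CPM in KO+EV (-2.19 ± 0.55, adjusted p = 0.0279). Both are low genes whose groups do not overlap. Cxcl10 lost its call without KO+EV replicate 2 (0.0514) or 3 (0.0530) or KO+f replicate 2 (0.0795), and Rsad2 without KO+EV replicate 2 (0.0556) or 3 (0.0717) or KO+f replicate 1 (0.0909) or 2 (0.0964). The count of members called was 2 without KO+EV replicate 3 (932 of 13165 genes called) and 3 without KO+EV replicate 2 (563 of 13166). It was 3 without KO+f replicate 1 (698 of 13199) and 1 without KO+f replicate 2 (559 of 13179).

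The members did not move one way as a set. Their median was 0.01, against -0.01 for all genes, with 20 of 40 above 0 (48.9% of genes), and 6 were higher and 7 lower without overlap, against 17.3% and 17.5% of genes. Irf7 changed by -0.35 ± 0.43, Irf9 by 0.27 ± 0.14, Isg15 by 0.26 ± 0.46 and Usp18 by -0.61 ± 0.53, none passing. Of 16 other MHC class I genes tested 9 rose and 0 fell (median 0.66), including the light chain B2m (606, 683 and 411 CPM in KO+f, against 257, 279 and 288 in KO+EV, 1.05 ± 0.18, adjusted p = 0.00635) and H2-D1 (0.71 ± 0.14, adjusted p = 0.0116), both in 6 of 6 fits that left out 1 library. Of 35 other interferon-stimulated genes 4 rose and 0 fell, with Ddx60 at 19.9, 16.3 and 11.01 CPM in KO+f, against 2.44, 2.43 and 1.67 CPM in KO+EV (2.85 ± 0.28, adjusted p = 0.000441). Of 10 JAK-STAT genes 2 rose, the kinase gene Jak2 (1.13 ± 0.22, adjusted p = 0.0107) and the receptor gene Ifnar2 (0.44 ± 0.12, adjusted p = 0.0379, passing in 0 of 6 such fits). Of 13 genes of nucleic acid sensing outside the members 0 rose and 1 fell, Tmem173, which encodes the adaptor STING, at 108, 81.4 and 123 CPM in KO+f, against 186, 224 and 126 CPM in KO+EV (-0.78 ± 0.21, adjusted p = 0.0328, passing in 2 of 6 such fits).

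Markers of other cells differed between the same libraries. Classical dendritic cell markers summed to 353, 346 and 100 CPM in KO+f, against 59.1, 26.6 and 7.03 CPM in KO+EV, with no overlap, although 0 of the 4 tested passed. Of 8 macrophage markers tested 1 rose, Csf1r (1.66 ± 0.36, adjusted p = 0.0174), and 7 of 8 fitted changes were above 0 (median 0.68), with 231 to 275 CPM summed in KO+f, against 216 to 248 CPM in KO+EV. Single markers of T and NK cells (Klrb1c), hepatocytes (Afp) and erythroid cells (Car1) and 2 HSC markers (Hlf and Procr) rose too, while 0 of 8 granulocyte markers passed (10459 to 14887 CPM summed in KO+f, against 9815 to 53546 CPM in KO+EV). The part of these markers in the members' changes was not tested.

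**Figure D2:**
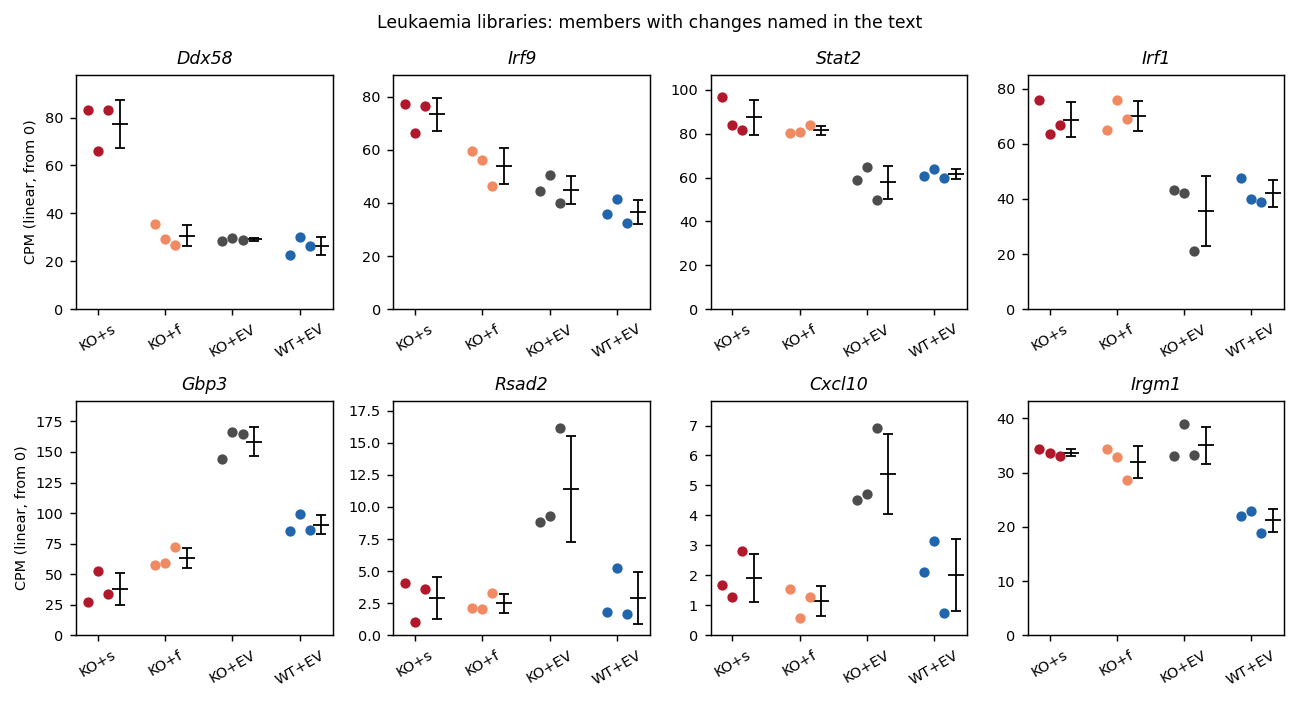
CPM of 8 members in the leukaemia libraries (points), with mean and SD (bars), for KO+s, KO+f, KO+EV and WT+EV from left to right, each panel on its own linear axis from 0. Ddx58 is high in KO+s alone (65.9 to 83.3 CPM), Gbp3 is high in KO+EV (145 to 166 CPM), and Stat2 and Irf1 are higher in KO+s and KO+f than in KO+EV.

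Overexpressing s-PRDM16 in knockout cells, KO+s against KO+EV, moved more members, as it did genes at large. Of 40 members tested 13 passed, against 32.4% of genes, 9 higher (15.9% of genes) and 4 lower (16.6% of genes). The sensor gene Ddx58, the factors Stat2, Irf9 and Irf1, the antiviral GTPase genes Mx2 and Mx1, the antigen-processing genes Psmb9 and Tap1, and Parp9 rose. Gbp3, Rsad2, Cxcl10 and Ifit2 fell. The median change of the members was 0.28, against -0.01 for all genes, and 0.07 without KO+EV replicate 3. At an unadjusted p under 0.05 there were 17 members, against 43.8% of genes.

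Ddx58 encodes RIG-I, the cytosolic sensor of viral RNA ends. It had 83.3, 65.9 and 83.2 CPM in KO+s, against 28.4, 29.8 and 29.0 CPM in KO+EV, a change of 1.41 ± 0.15 (adjusted p = 0.000143). The groups lie far apart and the KO+EV libraries almost coincide. Stat2 had 96.8, 84.2 and 81.5 CPM in KO+s, against 58.7, 65.0 and 49.7 CPM in KO+EV (0.60 ± 0.12, adjusted p = 0.00327). Irf9, the DNA-binding subunit of ISGF3, had 77.2, 66.4 and 76.6 CPM in KO+s, against 44.4, 50.4 and 40.0 CPM in KO+EV (0.71 ± 0.14, adjusted p = 0.00367). Stat2 and Irf9 kept their groups apart.

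Irf1 had 76.0, 63.7 and 66.7 CPM in KO+s, against 43.4, 42.2 and 20.9 CPM in KO+EV (0.95 ± 0.23, adjusted p = 0.00809). Mx2 had 1.60, 0.851 and 1.18 CPM in KO+s, against 0.153, 0.366 and 0.156 CPM in KO+EV (2.38 ± 0.52, adjusted p = 0.00556). Mx1, whose product traps viral nucleoproteins, had 5.51, 4.31 and 4.82 CPM in KO+s, against 2.44, 1.74 and 1.93 CPM in KO+EV (1.26 ± 0.45, adjusted p = 0.0499). The groups were separate for all 3 genes, at levels far lower for the Mx genes than for Irf1. Psmb9, an immunoproteasome subunit gene, had 82.5, 76.3 and 87.5 CPM in KO+s, against 57.2, 57.9 and 24.9 CPM in KO+EV (0.81 ± 0.28, adjusted p = 0.0430). Tap1 had 131, 123 and 124 CPM in KO+s, against 92.8, 105 and 69.8 CPM in KO+EV (0.49 ± 0.17, adjusted p = 0.0462). For both, KO+EV replicate 3 was the lowest library, and without it the adjusted p was 0.0684 and 0.147. Parp9, an ADP-ribosyl transferase gene, changed by 0.67 ± 0.24 (adjusted p = 0.0497, and 0.0854 without KO+EV replicate 3).

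Among the members that fell, Gbp3 had the smallest adjusted p, at 27.1, 52.6 and 33.6 CPM in KO+s, against 145, 166 and 164 CPM in KO+EV (-2.07 ± 0.21, adjusted p = 0.000117). Rsad2 had 4.04, 1.06 and 3.64 CPM in KO+s, against 8.80, 9.29 and 16.1 CPM in KO+EV (-1.96 ± 0.55, adjusted p = 0.0176). Cxcl10 had 1.69, 1.28 and 2.82 CPM in KO+s, against 4.53, 4.71 and 6.93 CPM in KO+EV (-1.48 ± 0.51, adjusted p = 0.0451). No KO+s library reached a KO+EV library for these genes. Ifit2, which binds foreign RNA, had 18.4, 14.3 and 24.2 CPM in KO+s, against 31.1, 36.4 and 31.8 CPM in KO+EV (-0.80 ± 0.28, adjusted p = 0.0458).

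Ddx58, Stat2, Irf9, Mx2, Irf1 and Gbp3 passed in all 6 fits that left out 1 library, and Rsad2 in 5 (0.0503 without KO+s replicate 2). Psmb9 and Parp9 passed in 2, Tap1, Cxcl10 and Ifit2 in 1 and Mx1 in 0 of the 6 (Mx1 0.0703 to 0.136). Psmb9 reached 0.108 and Tap1 0.0917 without KO+s replicate 3, Parp9 0.107 and Cxcl10 0.135 without KO+s replicate 1, and Ifit2 0.168 without KO+s replicate 2 and 0.120 without KO+EV replicate 2. The count of members called was 8 without KO+EV replicate 3 (3821 of 13165 genes called) and 7 without KO+s replicate 1 (2732 of 13191). It was 8 without KO+s replicate 2 (3497 of 13223). Without overlap between groups there were 18 members, against 51.0% of genes, 12 higher (25.5% of genes) and 6 lower (25.6% of genes), and 25 of 40 fitted changes were above 0 (49.4% of genes).

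By role the medians were 0.65 for the transcription factors, 0.52 for the oligoadenylate synthetase family, 0.49 for antigen processing, 0.40 for the sensors, -0.21 for the interferon-gamma GTPases and -0.70 for the chemokines. Irf7 did not follow Stat2 and Irf9, at 15.9, 5.32 and 16.1 CPM in KO+s, against 11.7, 18.9 and 11.04 CPM in KO+EV (-0.16 ± 0.43, adjusted p = 0.810). Isg15 had 5.06, 2.66 and 5.94 CPM in KO+s, against 1.73, 2.97 and 1.25 CPM in KO+EV (1.19 ± 0.46, adjusted p = 0.0633). Usp18 changed by -0.09 ± 0.52 (adjusted p = 0.913). KO+s replicate 2 was low for all 3 of these genes.

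Genes of the same pathway outside the list also passed. Of 10 receptor and JAK-STAT genes 5 rose and 1 fell: Jak2 rose by 1.43 ± 0.22 (adjusted p = 0.00103) and Jak1 by 0.74 ± 0.14 (adjusted p = 0.00234), and Ifngr1 fell by 0.51 on the log2 scale. Ifnar2 also rose, by 0.43 (edgeR adjusted p = 0.0197), and passed in 3 of 6 fits that left out 1 library. Of 16 other MHC class I genes 9 rose and 1, Tap2, fell (median 0.64). B2m had 1296, 1191 and 1602 CPM in KO+s, against 257, 279 and 288 CPM in KO+EV (2.31 ± 0.19, adjusted p = 5.03e-05), and the classical heavy chain genes H2-K1 (1.67 ± 0.17) and H2-D1 (1.47 ± 0.15) rose with it. Of 35 other interferon-stimulated genes 11 rose and 0 fell, among them Ddx60 (40.0, 28.0 and 44.2 CPM in KO+s, against 2.44, 2.43 and 1.67 in KO+EV, 4.10 ± 0.29), Uba7, the activating enzyme for ISG15 (1.53 ± 0.22), and the exonuclease gene Isg20 (1.72 ± 0.29). These JAK-STAT, MHC class I and interferon-stimulated genes with a standard error passed in 6 of 6 fits that left out 1 library. Of 13 genes of nucleic acid sensing outside the members 1 rose and 1 fell. Ikbke rose, by 0.88 to 1.26 over the 6 fits that left out 1 library, passing in 6 of 6. Tmem173 fell here too, to 56.9, 52.4 and 52.5 CPM in KO+s, against 186, 224 and 126 CPM in KO+EV (-1.73 ± 0.21, adjusted p = 0.000287). No interferon gene was high enough to be tested in leukaemia, 18 of the 20 ligands looked for having a row, and Ifnb1 had 0 counts in KO+s, 1 in KO+f, 4 in KO+EV and 0 in WT+EV over 3 libraries each.

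Markers of other cells moved beside these results. Of 8 granulocyte markers tested 5 rose in KO+s, whose libraries held 22854 to 25796 CPM of them, against 9815 to 53546 CPM in KO+EV. Of 8 macrophage markers tested 2 rose and 1 fell, with 422 to 461 CPM summed in KO+s, against 216 to 248 CPM in KO+EV and 0 of the 9 at 0 in either group. Plasmacytoid dendritic cells are known for high interferon output. Their 7 markers summed to 1.60 to 4.05 CPM in KO+s, against 1.354 to 1.63 CPM in KO+EV, with 6 of 7 under 1 CPM in every library of both groups and Klk1 at 0 in KO+EV. The 1 tested, Cd300c, rose, at 2.98, 1.12 and 3.38 CPM in KO+s, against 1.07, 0.961 and 0.625 CPM in KO+EV (1.49 ± 0.44, adjusted p = 0.0235). Single markers of classical dendritic (Cd209a), B (Cd79a), T and NK (Klrb1c) and erythroid cells (Car1) and the HSC markers Hlf and Procr rose as well. The part of these markers in the members' changes was not tested.

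**Figure D3:**
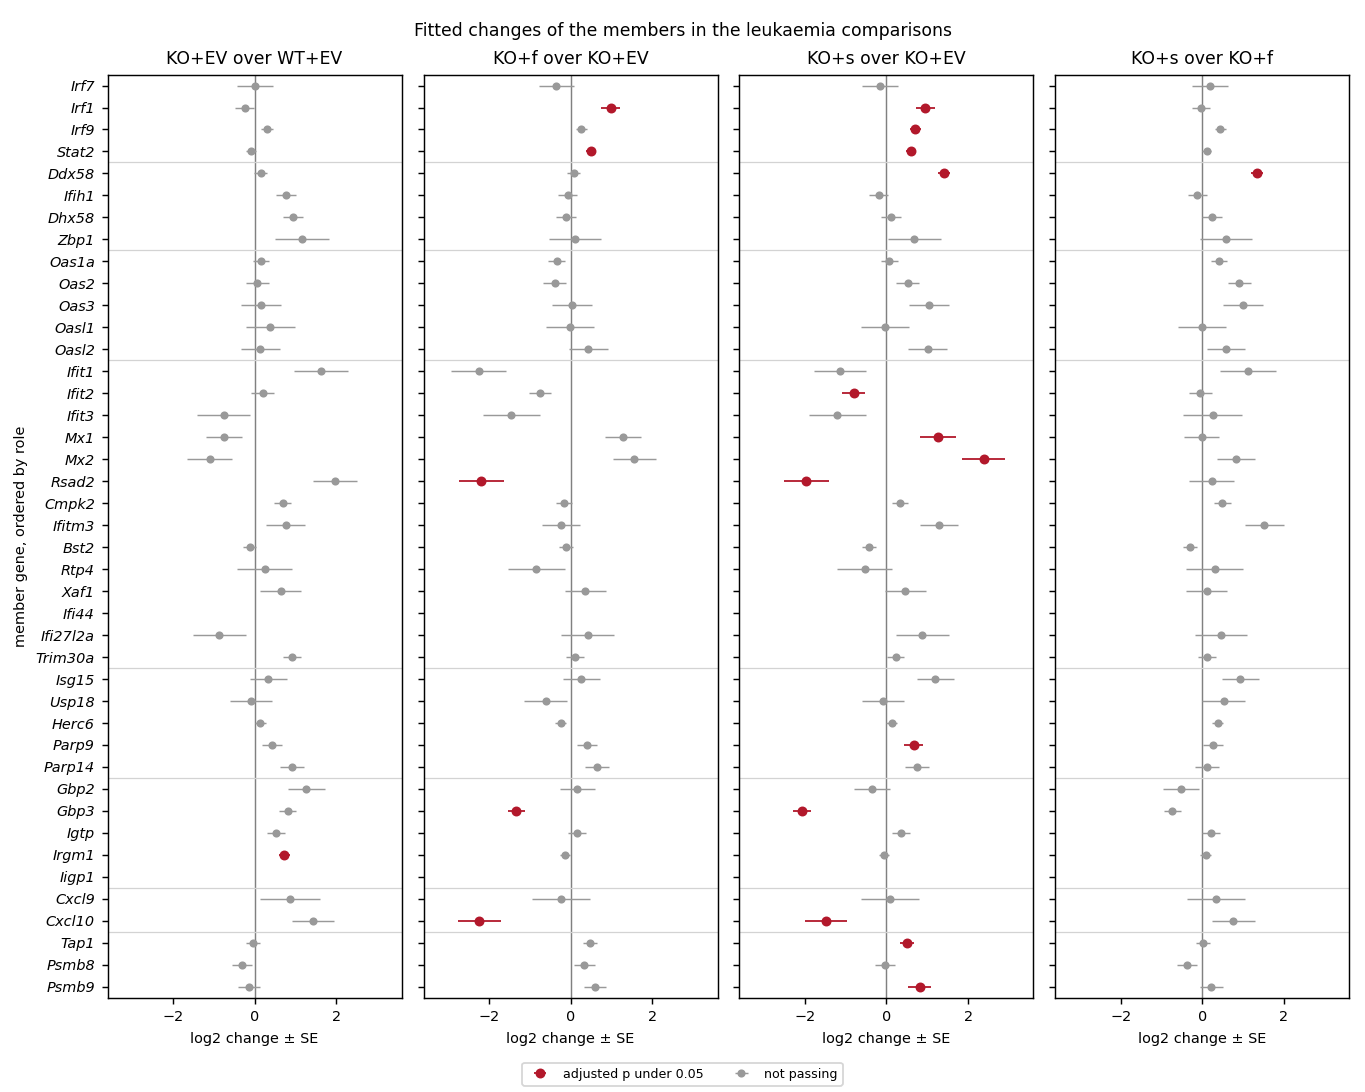
Log2 change with SE (x axis) of the members tested (one line each) in the 4 leukaemia comparisons, with red points for an adjusted p under 0.05 and grey points for those not passing. KO+s against KO+EV has 13 red points, KO+f against KO+EV 5, and KO+EV against WT+EV and KO+s against KO+f 1 each, Irgm1 and Ddx58.

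The forms were set against each other directly, KO+s against KO+f, at Prdm16 levels that did not differ detectably. Of 40 members 1 passed, against 3.81% of genes (2.05% higher and 1.76% lower), and it was Ddx58, with 83.3, 65.9 and 83.2 CPM in KO+s, against 35.6, 29.4 and 26.9 CPM in KO+f. Every KO+s library was above every KO+f library (1.34 ± 0.15, adjusted p = 0.00489), and the call held in 6 of 6 fits that left out 1 library. Between KO+f and KO+EV, the same gene changed by 0.07 ± 0.15 (adjusted p = 0.776).

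The members next in order of p did not pass. Oas2, an oligoadenylate synthetase gene, had 71.5, 39.3 and 65.7 CPM in KO+s, against 38.0, 27.6 and 28.5 CPM in KO+f (0.91 ± 0.29, adjusted p = 0.0900). Ifitm3 had 60.15, 34.99 and 55.4 CPM in KO+s, against 21.4, 18.0 and 13.3 CPM in KO+f (1.51 ± 0.47, adjusted p = 0.0901). Gbp3 had 27.1, 52.6 and 33.6 CPM in KO+s, against 57.2, 59.6 and 72.3 CPM in KO+f (-0.74 ± 0.20, adjusted p = 0.0632). It passed in 1 of 6 fits that left out 1 library (0.0109 without KO+s replicate 2), with an adjusted p of up to 0.195 in the others. None of these groups overlapped. At an unadjusted p under 0.05 there were 7 members (22.5% of genes), 9 were higher and 3 lower without overlap (15.2% and 15.3% of genes), and 31 of 40 fitted changes were above 0 (47.8% of genes), with a median of 0.24 against -0.02 for all genes. Irf9 changed by 0.44 ± 0.14 (adjusted p = 0.0963), Stat2 by 0.10 ± 0.12, Irf7 by 0.19 ± 0.43, Isg15 by 0.93 ± 0.45 and Usp18 by 0.52 ± 0.53, none passing.

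Of 16 other MHC class I genes 4 rose, led by B2m at 1296, 1191 and 1602 CPM in KO+s, against 606, 683 and 411 CPM in KO+f (1.27 ± 0.18, adjusted p = 0.00746, passing in 6 of 6 such fits). Of 35 other interferon-stimulated genes 2 rose, Ddx60 (1.25 ± 0.25, adjusted p = 0.0242) and Isg20 (1.42 ± 0.29, adjusted p = 0.0247), each passing in 2 of 6 such fits. Of 10 receptor and JAK-STAT genes 1 rose, Il28ra, passing in 2 of 6 such fits. Of 13 genes of nucleic acid sensing outside the members 1 rose and 1 fell. Ikbke rose, by 1.07 to 1.37 over those fits, passing in 4 of 6. Tmem173 fell to 56.9, 52.4 and 52.5 CPM in KO+s, against 108, 81.4 and 123 CPM in KO+f (-0.95 ± 0.21, adjusted p = 0.0324), passing in 1 of 6. Of 8 macrophage markers tested 1 rose, Emr1 (1.75 ± 0.33, adjusted p = 0.0199), and 0 fell. Their fitted changes were above 0 for 2 and below 0 for 6 (median -0.48). Of 8 granulocyte markers 4 rose, and KO+s held 22854 to 25796 CPM of them, against 10459 to 14887 CPM in KO+f, and their part in the members' values was not tested.

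Promoters with and without the response element were both among the calls. In KO+s against KO+EV, 2 members rose and 3 fell of 17 with the element, 4 rose and 1 fell of 13 tested without it, and 3 rose of 10 tested with no promoter in the table. In KO+f against KO+EV, 1 rose and 3 fell of 17 with the element, and 1 rose of 13 without it. Ddx58 and Stat2, which rose in KO+s, and Gbp3, Rsad2 and Cxcl10, which fell there, all hold the element shown in the sequences at the start.

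In adult marrow HSCs no member passed the test between libraries labelled KO and wild type, 0 of 42, against 0.00% of 13495 genes in edgeR, and DESeq2 called 62 genes and 0 members. At an unadjusted p under 0.05 there was 1 member, Irf7, against 1141 genes (8.45%). Irf7 had 44.5, 44.2, 53.5 and 35.2 CPM in libraries labelled KO, against 124, 83.2, 49.5 and 73.1 CPM in wild type (-0.90 ± 0.25, adjusted p = 0.514). The groups overlap through KO replicate 3 and wild-type replicate 3.

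Next in order of unadjusted p came Xaf1, a proapoptotic interferon target, with 26.3, 28.2, 35.4 and 31.5 CPM in libraries labelled KO, against 46.2, 49.4, 31.0 and 36.0 CPM in wild type (-0.42 ± 0.20, adjusted p = 0.595). Ifi27l2a, a small interferon-induced gene, had 4.67, 7.28, 5.28 and 9.99 CPM in libraries labelled KO, against 8.53, 14.4, 6.96 and 16.0 CPM in wild type (-0.75 ± 0.36, adjusted p = 0.606). Both overlap between groups. Zbp1, a sensor of Z-form nucleic acid, was the 1 member without overlap, lower (2.70% of genes, with 6.03% apart in either direction) at 19.2, 18.2, 18.3 and 19.4 CPM in libraries labelled KO, against 31.2, 25.7, 19.97 and 21.3 CPM in wild type (-0.39 ± 0.20, adjusted p = 0.610). Of the 42 fitted changes 15 were above 0 (46.2% of genes), and the median was -0.11, against -0.03 for all genes, but 0.05 without wild-type replicate 1.

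Role medians ran from -1.13 for the chemokines and -0.33 for the oligoadenylate synthetases to 0.06 for the ISG15 group. Stat2 changed by 0.18 ± 0.23, Irf9 by -0.07 ± 0.18, Isg15 by -0.17 ± 0.23 and Usp18 by 0.04 ± 0.19, none passing. Macrophage markers summed to 36.9 to 71.3 CPM in libraries labelled KO, against 24.0 to 35.9 CPM in wild type, and their part in these values was not tested.

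**Figure D4:**
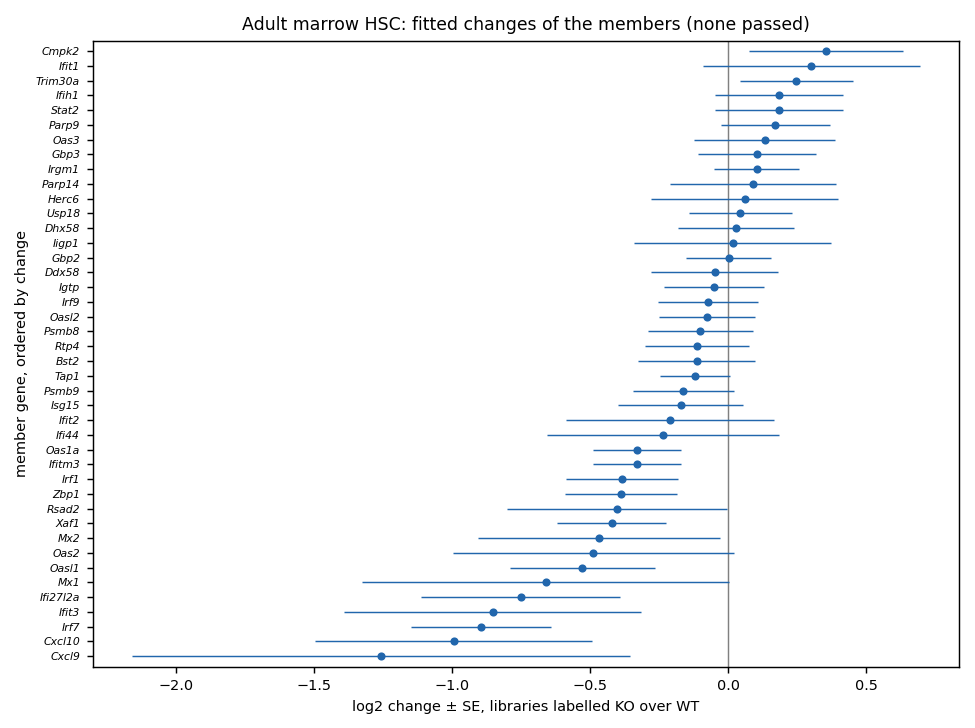
Log2 change with SE (x axis) of the 42 members in adult marrow HSCs, libraries labelled KO over wild type, one line per member, ordered by change. No member passed; Irf7 at -0.90 has the smallest unadjusted p, and 15 of 42 points lie above 0.

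In fetal liver HSCs the members differed more between replicate numbers than between genotypes. In the total-knockout table replicate 3 was the highest library in both genotypes for 38 of 41 members (92.7%, against 28.0% of 15565 genes). The members summed to 846, 841 and 2170 CPM in knockout, against 909, 880 and 2507 CPM in wild type. In the f-PRDM16-knockout table the same held for replicate 2 in 34 of 42 members, against 16.6% of 13631 genes, with sums of 1666, 1878 and 1069 CPM in knockout and 1510, 2821 and 1327 CPM in wild type. The medians of the members, and the changes of some named genes, are therefore given below with and without these libraries.

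Irf7 had 3.55, 4.59 and 39.7 CPM in total-knockout cells, against 6.86, 8.53 and 62.2 CPM in wild type. Ifit1, which binds viral RNA caps, had 1.32, 0.967 and 19.6 CPM in total-knockout cells, against 1.22, 1.05 and 27.9 CPM in wild type. Isg15 had 2.11, 1.87 and 15.4 CPM in total-knockout cells, against 1.33, 1.81 and 23.7 CPM in wild type. In all 3 genes replicate 3 of both genotypes stood above every other library. Over the mean of the other libraries of its group, replicate 3 was higher for Ifit1 by 17.1-fold in knockout and 24.5-fold in wild type, for Irf7 by 9.77-fold and 8.09-fold, for Irf1 by 1.40-fold and 1.54-fold and for Stat2 by 1.10-fold and 1.497-fold, knockout before wild type in each pair. The median over members was 4.31-fold in knockout and 4.49-fold in wild type. In the f-PRDM16-knockout table replicate 2 was higher than the mean of the others by a median of 1.64-fold in knockout and 2.79-fold in wild type.

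Cell type markers differed between the same libraries, and some between genotypes. Macrophage markers summed to 31.6, 39.9 and 63.6 CPM in total-knockout cells, against 14.9, 16.9 and 15.4 CPM in wild type, with no overlap. Of 6 tested 0 passed, 5 had an unadjusted p under 0.05 and all 6 fitted changes were above 0 (median 1.84). Granulocyte markers summed to 716, 1379 and 13229 CPM in total-knockout cells, against 160, 243 and 1679 CPM in wild type, highest in replicate 3 of both. Hepatocyte markers summed to 289, 116 and 32.7 CPM in total-knockout cells, against 259, 173 and 27.7 CPM in wild type, and T and NK cell markers to 16.1, 17.7 and 64.7 CPM in knockout and 9.38, 8.82 and 20.7 CPM in wild type. Plasmacytoid dendritic cell markers were lowest in replicate 3, at 25.8, 35.1 and 7.76 CPM in knockout and 16.9, 13.9 and 4.38 CPM in wild type. In the f-PRDM16-knockout table granulocyte markers summed to 7532, 30520 and 48240 CPM in knockout, against 6809, 3091 and 19679 CPM in wild type, so replicate 2 was not the highest there. HSC markers summed to 1121, 1388 and 1036 CPM in knockout, against 1251, 2285 and 1646 CPM in wild type, highest in replicate 2 of both. The part of these markers in the members' pattern was not tested.

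Between total-knockout and wild-type fetal cells 0 of 38 members passed (0.00% of 15565 genes), 0 had an unadjusted p under 0.05 (739 genes, 4.75%), and DESeq2 called 71 genes and 0 members. No member kept its groups apart, against 5.21% of genes higher and 5.61% lower. With the replicate number as a block, 3 of 38 passed, all lower, against 1.13% of genes in either direction and 0.604% lower: Irf7, Oas1a and Trim30a. Irf7 changed by -0.81 ± 0.13 with the block (adjusted p = 0.0317), and by -0.70 ± 1.23 without it. Oas1a had 17.9, 17.3 and 92.8 CPM in total-knockout cells, against 25.3, 24.6 and 128 CPM in wild type (blocked -0.49 ± 0.08, adjusted p = 0.0332, and -0.48 ± 0.94 without). Trim30a had 15.9, 14.4 and 53.9 CPM in total-knockout cells, against 22.5, 25.4 and 76.6 CPM in wild type (blocked -0.61 ± 0.10, adjusted p = 0.0423, and -0.57 ± 0.69 without).

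Oas1a and Trim30a have near-identical neighbours that could share reads. The labels do not state that equal numbers are pairs. Within each number the knockout library was the lower one for all 3 genes. The log2 difference in pairs 1, 2 and 3 was -0.86, -0.83 and -0.64 for Irf7, -0.49, -0.49 and -0.46 for Oas1a, and -0.49, -0.80 and -0.50 for Trim30a. The blocked calls needed all pairs: with both libraries numbered 1 left out 0 members passed, with those numbered 2 left out 0, and with those numbered 3 left out 1, Trim30a (-0.66, adjusted p = 0.0456). In that order 138 of 15640, 52 of 15687 and 322 of 15671 genes were called. Irf7 then had a blocked adjusted p of 0.0868, 0.195 and 0.113 without pairs 1, 2 and 3.

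Over all 41 members with a row, the knockout library was lower for 26, 28 and 35 in pairs 1, 2 and 3, with median log2 differences of -0.17, -0.13 and -0.25. In the unblocked fit 4 of 38 changes were above 0, against 49.9% of genes, and the median was -0.28, with 0.65 without wild-type replicate 3, -1.24 without knockout replicate 3 and -0.18 without both. Of 36 other interferon-stimulated genes 3 had a change above 0 and 33 below, and 0 passed. Stat2 changed by -0.16 ± 0.21, Irf9 by 0.01 ± 0.54, Isg15 by -0.48 ± 1.33 and Usp18 by -0.33 ± 0.95, none passing with or without the block. Parp14 (-0.41 ± 0.23) and Gbp3 (-0.68 ± 0.77) were, with Trim30a, the members with the smallest unadjusted p, and did not pass.

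**Figure D5:**
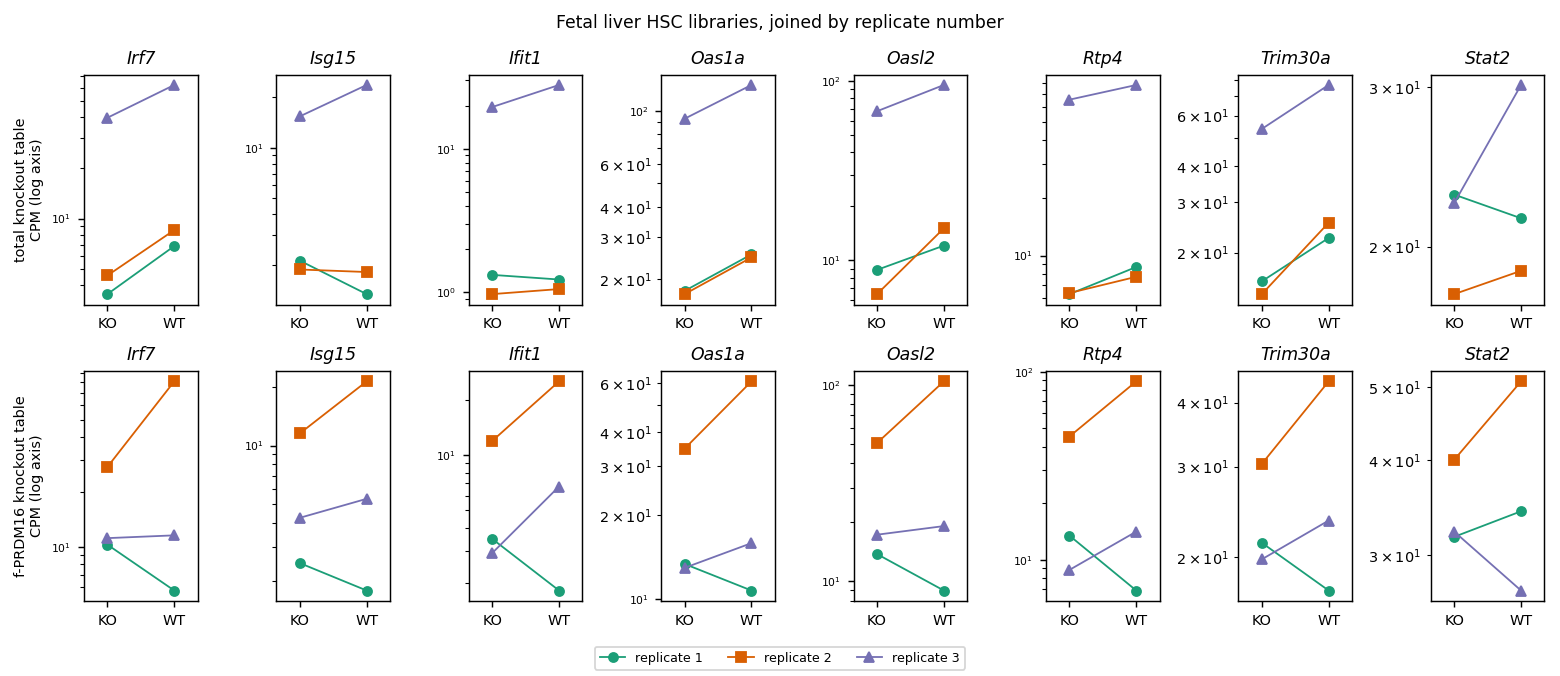
CPM on a log axis of 8 members in fetal liver HSCs, knockout left and wild type right in each panel, libraries with the same replicate number joined by a line, total knockout above and f-PRDM16 knockout below. Replicate 3 of the total-knockout table and replicate 2 of the f-PRDM16-knockout table lie above the others in both genotypes for Irf7 (39.7 and 62.2 CPM, and 27.5 and 81.1 CPM), and within the upper panels most lines run higher on the wild-type side.

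In f-PRDM16-knockout fetal cells 0 of 41 members passed with or without the block (0.00% of 13631 genes), and 0 had an unadjusted p under 0.05 (357 genes, 2.62%). DESeq2 called 1 gene and 0 members. Gbp3 was the 1 member without overlap, lower (3.73% of genes) at 13.4, 14.7 and 4.39 CPM in knockout, against 15.7, 40.4 and 20.2 CPM in wild type (-1.23 ± 0.53, adjusted p = 0.999). With both libraries numbered 1 left out its blocked change was -1.80 (adjusted p = 0.0494). It was the 1 member called of 41 there, where 236 of 13985 genes were called. With both libraries numbered 2 or 3 left out, the blocked change of Gbp3 was -1.20 (edgeR adjusted p = 0.856) or -0.84 (0.840). Gbp2 had 4.68, 7.59 and 5.36 CPM in knockout, against 5.43, 20.6 and 10.6 CPM in wild type (-1.05 ± 0.49, adjusted p = 0.999). Iigp1, another interferon-gamma GTPase gene, had 0.0856, 3.13 and 1.47 CPM in knockout, against 0.295, 20.2 and 1.60 CPM in wild type (-2.23 ± 1.59, adjusted p = 0.999). For all 3 the highest library was wild-type replicate 2. With both libraries numbered 2 left out, the blocked changes of Gbp2 and Iigp1 were -0.61 and -0.69 (edgeR adjusted p = 0.862 and 0.928).

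Irf7 had 10.3, 27.5 and 11.2 CPM in f-PRDM16-knockout cells, against 5.75, 81.1 and 11.6 CPM in wild type (-1.01 ± 0.96), and the knockout was the higher library in pair 1. Isg15 had 2.48, 11.5 and 4.25 CPM in knockout, against 1.79, 21.4 and 5.32 CPM in wild type (-0.64 ± 0.93). With both libraries numbered 2 left out, the blocked changes were 0.38 for Irf7 and 0.0492 for Isg15, neither passing. Stat2 changed by -0.11 ± 0.25, Irf9 by -0.48 ± 0.50 and Usp18 by -0.29 ± 0.73, none passing. Of the 42 members 34 were higher in knockout in pair 1 (median 0.16), 40 were lower in pair 2 (-0.88) and 32 were lower in pair 3 (-0.22). In the fit 3 of 41 changes were above 0, against 48.7% of genes, and the median was -0.48, with 0.33 without wild-type replicate 2 and -0.01 without both libraries numbered 2.

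The difference between the fetal knockout effects, f-PRDM16 knockout minus total knockout, was tested in a joint fit of both tables. Of 40 members 0 passed, against 0.00% of 15777 genes, and 335 genes had an unadjusted p under 0.05 (2.12%), with 0 members among them. Of the 40 differences 8 were above 0 (44.2% of genes).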

How the data were processed

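Gene counts of 32 RNA sequencing libraries were used as deposited by the authors, in 4 tables. Per the submitters' processing notes, bcl2fastq 2.17, TopHat, DESeq and mouse build mm9 were used. The counting tool, annotation and strand setting are not given in the sources used here. Per the labels' protocols, RNA was extracted from sorted, uncultured cells, leukaemia libraries were made with a poly-A selection kit and HSC libraries with a low-input amplification kit. Rows naming no gene were dropped, 92 spike-ins in each of the adult and f-PRDM16-knockout tables (0 and 1 counts) and 26 date-like names from the total-knockout one. All columns matched a sample (0 unmatched), and no pair of libraries within a count table agreed within sampling noise (lowest chi-square per degree of freedom 11.6 over 124 pairs).

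Counts were tested with edgeR 4.0.16 (R 4.3.3, limma 3.58.1): filterByExpr, TMM scaling, a robust two-sided quasi-likelihood F test and Benjamini-Hochberg adjustment over all genes tested, at 0.05. All leukaemia groups entered a single fit, and each HSC table had its own. The script was tested on simulated data. Per-pair log2 differences add 0.5 CPM. Alternatives were DESeq2 1.42.0, RLE scaling, no filter, only the groups compared, the replicate number as block, leaving out Gm-numbered genes and leaving out libraries. Summaries were made with pandas 2.3.3 and scipy 1.17.1 under Python 3.11.15 (numpy 2.4.6), and figures with matplotlib 3.10.9.

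Same-numbered fetal libraries deviated together from their group means (correlations 0.687, 0.506 and 0.809 for the total knockout, 0.708, 0.430 and 0.760 for the f-PRDM16 knockout, against a minimum of 0.1). Replicate 2 of the total-knockout cells correlated better with a wild-type library of another number than with its own. Deviations from the mean of so few libraries depend on each other, so these correlations alone cannot show which libraries belong together. The numbers were taken as pairs on this limited ground, and the unblocked fit was kept as the first result.

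The members and gene lists were chosen with earlier results of these data known. Named were up to 8 called members per direction with the smallest adjusted p, the 3 with the smallest unadjusted p where fewer than 3 passed, Irf7, Stat2, Irf9, Isg15, Usp18 and Prdm16 throughout, and up to 4 called genes per other list. One further gene that the rule covers is not reported here and is left out of the list counts.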

Additional observations from a re-analysis of the deposited data

Results flagged for a closer look

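In adult marrow, 6 of 84 sets of 4 libraries (one member in one group) held a library set far from the other 3, where chance gives about 1 in 20. Among the libraries labelled KO, Mx1 had 8.50 CPM in replicate 3, against 1.80, 1.71 and 2.43 CPM in the others. Cmpk2 had 128 CPM in the same replicate 3, against 61.7, 72.2 and 70.6 CPM. In KO replicate 2, Bst2 had 85.8 CPM, against 97.3, 98.2 and 97.3 CPM, and Herc6 had 29.6 CPM, against 46.0, 45.5 and 45.4 CPM. In wild-type replicate 1, Stat2 had 94.6 CPM, against 52.5, 54.7 and 46.5 CPM, and Ifi44 had 108 CPM, against 32.2, 31.9 and 23.1 CPM in the other wild-type libraries.

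Gbp3 lay on opposite sides in different cells without passing in either: every KO+EV leukaemia library was above every WT+EV library (0.81, adjusted p = 0.0638), and every f-PRDM16-knockout fetal library was below every wild-type library (-1.23, adjusted p = 0.999). This difference was not tested.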

How the results depend on the processing

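Members called changed with the settings as follows. In KO+EV against WT+EV, 1 was called, with 7 by DESeq2, 0 with only the groups compared and 0 to 7 when 1 library was left out. Over all genes, 272, 907, 1 and 26 to 425 were called in that order. In KO+f against KO+EV, 5 were called, with 3, all lower, with only the groups compared and 1 to 6 when 1 library was left out. Over all genes, 1461, 392 and 559 to 1533 were called in that order. In KO+s against KO+EV, 13 were called, with 7 to 13 when 1 library was left out. Over all genes, 4200 and 2732 to 3821 were called in that order. In KO+s against KO+f, 1 was called, with 5 by DESeq2, 2 with only the groups compared and 1 to 2 when 1 library was left out. Over all genes, 494 were called there, with 1406 by DESeq2 and 37 to 388 when 1 library was left out. With only the groups compared, more than 494 genes were called. In the total-knockout fetal comparison 0 were called, with 3 under the replicate block and 0 to 1 when 1 library or 1 pair was left out. Over all genes, 0, 176 and 0 to 322 were called in that order. In the f-PRDM16-knockout comparison the range of members called was also 0 to 1, with 0 to 236 genes called. The cause of these differences was not tested, and leaving out both libraries of a number was chosen after seeing the data.

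Under the replicate block, Prdm16 in adult marrow was 0.06 and Irf9 in total-knockout fetal cells -0.0093, both of opposite sign. In leukaemia and marrow the replicate numbers did not pair the libraries. The block there gave 1, 6, 11, 1 and 0 members called in the order above with adult marrow last. Beside them 195, 1442, 4177, 372 and 0 genes were called. In KO+s against KO+EV, Cxcl10 (0.0648), Ifit2 (0.0623) and Mx1 (0.0622) missed the threshold and Parp14 passed (0.0354). In KO+f against KO+EV Tap1 passed (0.0499). The block changed no other call among the members.

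The following log2 changes, none past the threshold without the block, changed sign when 1 library or pair was left out. In KO+EV against WT+EV they were Irf7 -0.28 to 0.51, Stat2 -0.18 to 0.0104, Isg15 -0.0745 to 0.59 and Usp18 -0.43 to 0.51. In KO+f against KO+EV it was Isg15 at -0.0073 to 0.68. In KO+s against KO+EV they were Irf7 -0.38 to 0.23 and Usp18 -0.36 to 0.25. In KO+s against KO+f they were Irf7 -0.0486 to 0.56 and Prdm16 -0.31 to 0.0791. In adult marrow they were Irf9 -0.23 to 0.01, Usp18 -0.0825 to 0.15 and Prdm16 -0.32 to 0.35. In total-knockout fetal cells they were Gbp3 -1.45 to 0.51, Trim30a -1.46 to 0.23, Irf7 -2.67 to 1.05, Stat2 -0.30 to 0.0576, Irf9 -0.63 to 0.60, Isg15 -2.18 to 2.04 and Usp18 -1.85 to 0.70. In f-PRDM16-knockout fetal cells they were Iigp1 -3.24 to 0.72, Irf7 -1.61 to 0.91, Stat2 -0.30 to 0.18, Irf9 -0.82 to 0.25, Isg15 -1.50 to 0.77 and Usp18 -0.87 to 0.84.

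Depth limits the lowest genes: a log2 change of Mx2, Cxcl9 or Iigp1 rests on few counts in some groups, and interferon genes themselves were mostly too low to test.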
